A study of Mus musculus with 8 samples.

Results

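IL-1 family transcripts were followed through the cells of TAX-LUC tumors with and without IL-15. The family was taken as 10 genes, which are the cytokines Il1a, Il1b, Il1f9, Il18 and Il33, the receptor antagonist Il1rn, and the receptor chains Il1r2, Il1rap, Il18r1 and Il18rap. Each gene was found through the array annotation, and all 10 had 1 probe set each, of 19938 genes with a probe set of their own. TAX-LUC mice carry the Tax oncogene of a human leukemia virus under the granzyme B promoter, which is active in cytotoxic lymphocytes, and a luciferase reporter that Tax switches on, and they develop tail tumors. All groups carried both transgenes (TAX+ LUC+) on a mixed C57BL/6 and FVB background. The groups differed in whether the mice had IL-15 (IL-15+/+) or lacked it (IL-15-/-), and 2 mice of each genotype were used, at 14 months of age (mouse 1 of each genotype, replicate 1) and at 12 months (mouse 2, replicate 2). Tail tumors had arisen without treatment, and their cells were sorted by surface staining for CD16/32 (Fc gamma receptors III and II) into a CD16/32HI fraction, which the study describes as malignant lymphocytes, and a CD16/32LO fraction, described as infiltrating immune cells. RNA of each fraction of each mouse was hybridized to 1 array, which gave 8 arrays in 4 groups of 2. All values below are log2 RMA signals of a probe set. Since probe sets differ in brightness, signal levels are compared for the same gene across arrays. Positions against the array median are given as a description and do not show whether a cell type was present.

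Cytokines of the IL-1 family start inflammation by bringing together a ligand-binding receptor chain and an accessory chain, whose inner domains recruit Myd88 and IRAK kinases and activate NF-kB. IL-1α is active as it is made and is released from damaged cells, whereas IL-1β and IL-18 have to be cut, classically by caspase-1 in an inflammasome. The pathway is held back by a receptor antagonist and by a decoy receptor, and in inflamed tissue its genes are strongly expressed by macrophages and neutrophils.

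The promoters of Il1a, Il1b and Il1rn are shown as those of an agonist pair and their antagonist. These 3 genes were high and low on the same arrays, as were most other members. The sequences are from RefSeq (GRCm38.p6) and give the 250 bases before the annotated start, 5′ to 3′ on the strand of the gene, with TATA boxes (TATAAA) and AP-1 sites (TGANTCA, with N for any base) in capitals. Il1a lies on the minus strand (chr2:129309973-129310222), as does Il1b (chr2:129371140-129371389), and Il1rn lies on the plus strand (chr2:24336610-24336859, the first of 3 listed starts).
Il1a: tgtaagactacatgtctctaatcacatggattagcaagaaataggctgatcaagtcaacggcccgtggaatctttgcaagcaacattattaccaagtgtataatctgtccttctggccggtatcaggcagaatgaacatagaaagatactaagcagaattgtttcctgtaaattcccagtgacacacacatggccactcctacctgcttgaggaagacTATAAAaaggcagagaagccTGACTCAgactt
Il1b: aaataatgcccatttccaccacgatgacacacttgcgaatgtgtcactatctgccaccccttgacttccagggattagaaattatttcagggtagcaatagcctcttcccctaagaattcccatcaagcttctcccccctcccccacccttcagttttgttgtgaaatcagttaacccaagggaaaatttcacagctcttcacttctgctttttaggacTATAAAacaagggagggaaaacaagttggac
Il1rn: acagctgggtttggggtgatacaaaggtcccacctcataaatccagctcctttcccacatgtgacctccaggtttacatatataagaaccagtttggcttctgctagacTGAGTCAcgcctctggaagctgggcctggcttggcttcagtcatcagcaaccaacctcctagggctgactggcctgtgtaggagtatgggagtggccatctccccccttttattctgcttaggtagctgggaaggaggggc
The TATA box began 32 bases before the start in Il1a and 31 bases before it in Il1b. An AP-1 site began 12 bases before the start of Il1a and 141 bases before that of Il1rn. All 10 members matched the promoter table. Searched on both strands, TATAAA was in the promoters of 4 members (Il1a, Il1b, Il18 and Il33), against 12.4% of 32851 promoters of this length, and TGANTCA was in 2 members (Il1a and Il1rn), against 6.75%. The consensus site of NF-kB was in the promoters of 0 of the 10 members, against 3.9% of all promoters. Some members have several listed starts. A member was counted if any of them had the motif, whereas the shares are per promoter. These matches describe letters in the sequence, and binding was not measured.

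Not all arrays of a gate were alike in cell type genes. C1qa, a complement gene of tissue macrophages, was at 10.10 to 11.43 and Csf3r, the receptor for the neutrophil growth factor G-CSF, at 7.15 to 7.46 on 3 of the 4 arrays labelled CD16/32HI, and the reverse held on 3 of the 4 labelled CD16/32LO (C1qa 7.94 to 8.16, Csf3r 10.37 to 10.42). The array labelled CD16/32HI of IL-15-/- mouse 1 held C1qa at 7.68 and Csf3r at 10.74, and the array labelled CD16/32LO of that mouse held them at 10.73 and 7.32. Labels were kept as deposited, and results are given with and without this mouse, a choice that rests on these measured values. The mean of 11 lymphocyte markers was 5.27 to 6.08 on the CD16/32HI arrays and 5.36 to 7.51 on the CD16/32LO arrays, so the markers did not single out the CD16/32HI fraction as lymphocytes, and the fractions are called by their gate. Keratinocyte markers, of a cell that also makes IL-1α and IL-36γ, lay above the array median for 0 to 2 of 10 genes. Mast cell markers did so for 1 of 6 and stroma markers for 2 to 4 of 8. For dendritic cell markers it was 1 to 5 of 6. The stroma marker Dcn was at 9.25 and 10.45 on the arrays of IL-15-/- mouse 2 and at 5.06 to 6.51 on the others. Genotype values without IL-15-/- mouse 1 rest on mouse 2. The median difference of the stroma list was then 0.15 in CD16/32HI and 0.05 in CD16/32LO cells. Xist, which marks female cells, was at 10.08 to 10.75 on IL-15-/- arrays and at 3.92 to 4.64 on IL-15+/+ arrays, so sex and genotype cannot be told apart. The Il15 probe set, a summary along the transcript, was at 5.18 to 6.88 on IL-15+/+ and at 5.22 to 6.54 on IL-15-/- arrays and so does not check the genotype. The 3 sets of arrays that were normalized together were all of replicate 1, the IL-15+/+ pair of replicate 2 and the IL-15-/- pair of replicate 2, and genotype and normalization set cannot be told apart within replicate 2. In sorted bulk RNA, fewer cells of a type and less RNA per cell cannot be told apart.

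In CD16/32HI cells, the agonists Il1a, Il1b and Il1f9, the antagonist Il1rn, the decoy Il1r2 and the accessory chain Il1rap were higher on both IL-15-/- arrays than on both IL-15+/+ arrays. None of the 10 members passed the test over all genes. Over all 21789 probe sets tested, limma called 0.0229% between the genotypes at a Benjamini-Hochberg adjusted p under 0.05. At an unadjusted p under 0.05 there were 4 members (Il1a, Il1b, Il1rn and Il1f9) and 1070 probe sets in all. The 6 members whose IL-15-/- arrays lay above stand beside 24.1% of all probe sets, and the 0 members whose IL-15-/- arrays lay below beside 10.4%. The median difference of the members was 1.07, and that of all probe sets was 0.09. Without IL-15-/- mouse 1 that of the members was 0.29.

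Il1a, the gene of IL-1α, stood in CD16/32HI cells at 7.86 (replicate 1) and 7.26 (replicate 2) with IL-15 and at 10.93 and 9.88 without it. The groups did not overlap, and both IL-15-/- arrays were the higher ones. Their means were 7.56 ± 0.43 and 10.40 ± 0.74 (SD, n = 2), a difference of 2.84 or 7.17-fold (SE 0.577, adjusted p = 0.854 from limma). Within replicate 1, where all arrays were normalized together, the difference was 3.06, and within replicate 2 it was 2.62. It was 2.32 without IL-15-/- mouse 1 (SE 0.350, adjusted p = 0.0945), with 0.0413% of all probe sets called. The IL-15-/- side of each such genotype value is then 1 array a fraction, which is assumed to vary like the other groups. With a replicate block as well it was 2.47 (adjusted p = 0.00481), a call that was added after seeing the data and rests on 1 IL-15-/- mouse. Over all alternatives run, the difference stayed between 2.32 and 3.37 and its adjusted p between 0.00481 and 1.

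Il1b, the gene of the inflammasome-dependent agonist IL-1β, was bright on all 8 arrays. In CD16/32HI cells it was at 11.45 and 10.79 with IL-15 and at 12.75 and 11.80 without, a difference of 1.15 (SE 0.405, adjusted p = 0.854). It was 0.68 without IL-15-/- mouse 1. Il1rn, whose product occupies the IL-1 receptor without signaling, was at 9.18 and 8.94 against 10.64 and 9.64, a difference of 1.08 (SE 0.418, adjusted p = 0.854), and it was 0.58 without that mouse. Agonist and antagonist transcripts were thus both higher on the IL-15-/- arrays. Il1f9, the gene of IL-36γ, was near the array median with IL-15 (6.10 and 6.18) and was at 10.45 and 8.19 without it. Its difference of 3.18, or 9.05-fold (SE 1.04, adjusted p = 0.854), had the widest gap between the IL-15-/- arrays among these 4 genes, and it was 4.35 within replicate 1 and 2.00 within replicate 2. Without IL-15-/- mouse 1 it was 2.05 (SE 0.586, adjusted p = 0.811). Over 3-fold by mean signal were 2 members, Il1a and Il1f9, against 0.271% of all probe sets.

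Il18 and Il33 did not share this pattern. Il18, the gene of a cytokine that drives interferon gamma in NK and T cells, was at 7.48 and 6.54 in IL-15+/+ and at 5.59 and 7.04 in IL-15-/- CD16/32HI cells, so that the genotypes overlapped (difference -0.69, SE 0.540, adjusted p = 0.867). The difference was 0.03 without IL-15-/- mouse 1. Il33, a nuclear alarmin of stromal and barrier cells, was low on every array, at 4.01 to 4.64, below the array medians of 5.62 to 5.93. Its difference in CD16/32HI cells was -0.13 (SE 0.254, adjusted p = 0.945).

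Among the receptor genes, Il1r2 and Il1rap were higher on both IL-15-/- arrays, and the IL-18 receptor chains were not. Il1r2, a decoy that binds IL-1 and has no signaling domain, was at 11.73 and 11.03 in IL-15+/+ and at 13.08 and 11.85 in IL-15-/- CD16/32HI cells (difference 1.09, SE 0.482, adjusted p = 0.854). Il1rap, the accessory chain for IL-1, IL-33 and IL-36, was at 7.13 and 7.07 against 9.12 and 7.21 (difference 1.07, SE 0.781, adjusted p = 0.864). The Il1rap groups were just apart, and the replicate 1 array made up nearly all of the mean difference. Without IL-15-/- mouse 1 the differences were 0.47 for Il1r2 and 0.11 for Il1rap. Il18r1, which binds IL-18, was at 6.72 and 5.85 against 8.16 and 5.41, and its partner Il18rap was at 7.63 and 8.21 against 9.78 and 7.86. For both chains the IL-15-/- array of replicate 1 was the highest and the genotypes overlapped, with differences of 0.50 (SE 0.970, adjusted p = 0.948) and 0.90 (SE 0.891, adjusted p = 0.885). Without that mouse both turned, to -0.88 and -0.06.

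Neutrophil genes also differed by mean in CD16/32HI cells, and their list mean was raised on the IL-15-/- array of replicate 1 alone. All 9 measured neutrophil markers had higher means on the IL-15-/- CD16/32HI arrays (median difference 1.75), and 6 of 9 macrophage markers had lower ones (median -0.82). Summed as a list mean, neutrophil markers were at 7.49 and 7.69 on the IL-15+/+ arrays and at 7.52 and 10.66 on the IL-15-/- arrays, the last being the array labelled CD16/32HI of replicate 1. Without that mouse the neutrophil median was 0.02 (range -1.50 to 1.87) and the macrophage median 0.45. Il1a and Il1f9 were then 2.32 and 2.05 higher, and each of these values rests on 1 IL-15-/- array. The part of neutrophil RNA in the difference of any member was not tested.

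**Figure D1:**
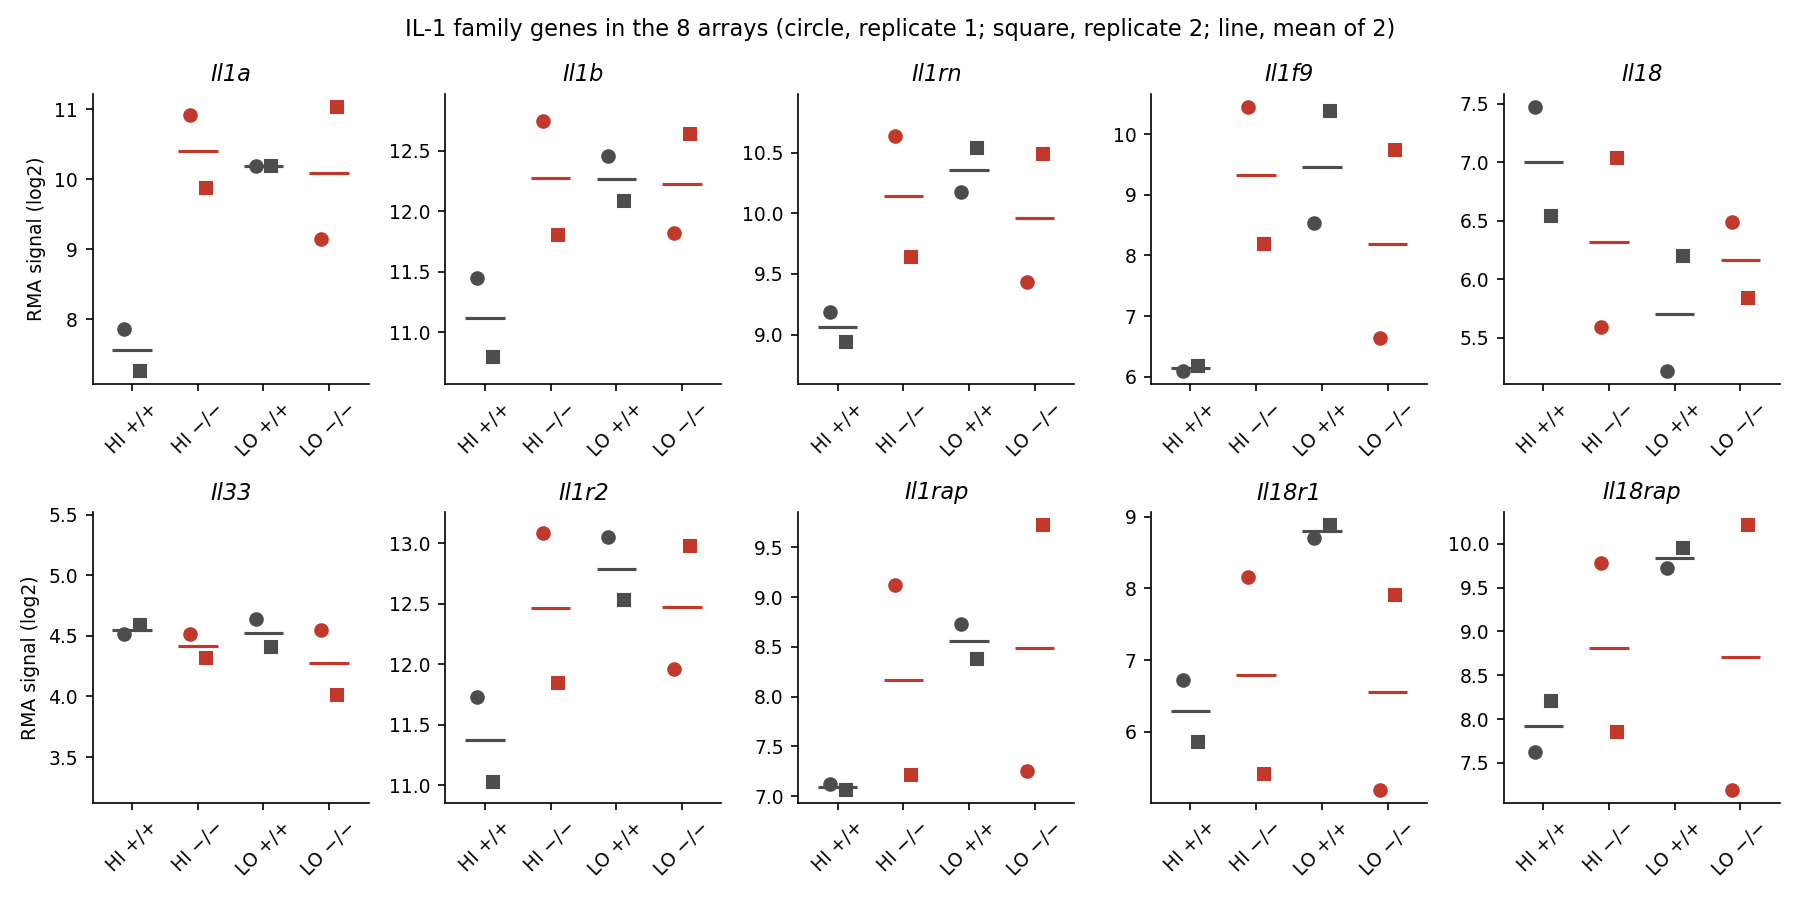
Log2 RMA signal (y axis of each panel) of the 10 IL-1 family genes on the 8 arrays, by sorted fraction (HI, CD16/32HI; LO, CD16/32LO) and IL-15 genotype (grey, +/+; red, -/-), where a circle is replicate 1, a square is replicate 2 and a line is their mean. For Il1a both IL-15+/+ CD16/32HI arrays, at 7.86 and 7.26, lie below the other 6 arrays, which run from 9.14 to 11.04.

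In CD16/32LO cells, no member was higher on both IL-15-/- arrays, and Il18r1 was lower on both. No member passed (limma called 0.0367% of all probe sets), and 1 member, Il18r1, was at an unadjusted p under 0.05, as were 417 probe sets in all. The 0 members whose IL-15-/- arrays lay above stand beside 24.2% of all probe sets, and the 1 member whose IL-15-/- arrays lay below beside 4.7%. Il1a was at 10.19 on both IL-15+/+ arrays and at 9.14 and 11.04 on the IL-15-/- arrays, which lay on either side of them. Its difference was -0.11 (SE 0.577, adjusted p = 1), made up of -1.06 within replicate 1 and 0.84 within replicate 2. Il1b (12.45 and 12.08 against 11.82 and 12.63, difference -0.04) was split in the same way, with the IL-15-/- array of replicate 1 lowest. That array was also lowest for Il1r2 (13.05 and 12.53 against 11.96 and 12.98, difference -0.32). The IL-15-/- array of replicate 2 lay between the IL-15+/+ arrays for Il1r2.

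Il1rn was at 10.18 and 10.54 in IL-15+/+ and at 9.44 and 10.49 in IL-15-/- CD16/32LO cells (difference -0.39). Il1f9 was at 8.53 and 10.37 against 6.64 and 9.74 (difference -1.26, SE 1.04). Il1rap was at 8.73 and 8.38 against 7.25 and 9.72 (difference -0.07). In all 3 genes the genotypes overlapped. Il18 was at 5.21 and 6.20 against 6.49 and 5.84 (difference 0.46), and Il33 at 4.64 and 4.41 against 4.55 and 4.01 (difference -0.25), again with overlap. The adjusted p of each of these genes was 1.

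The binding chain of the IL-18 receptor had the widest genotype difference of the members in CD16/32LO cells. Il18r1 was at 8.71 and 8.88 with IL-15 and at 5.19 and 7.90 without it. Its difference of -2.25 (SE 0.970, adjusted p = 1) was -3.52 within replicate 1 and -0.98 within replicate 2. It was the 1 member over 3-fold lower by mean signal, against 0.239% of all probe sets, and 0 members were over 3-fold higher, against 0.129%. Il18rap was at 9.72 and 9.95 against 7.20 and 10.21 (difference -1.13, SE 0.891), so only the array of replicate 1 lay below the IL-15+/+ arrays. Both chains are known from NK and T cells, and all 11 lymphocyte markers were lower on both IL-15-/- arrays of this fraction (median difference -2.23, with 2 called). The mean of these markers was 7.51 and 7.25 on the IL-15+/+ arrays and 5.36 and 5.64 on the IL-15-/- arrays. Of 9 neutrophil markers 8 had lower means on the IL-15-/- arrays of this fraction (median -0.82), of 9 macrophage markers 8 had higher ones (median 0.95), and all 6 dendritic cell markers had lower ones (median -1.16). Without IL-15-/- mouse 1 these medians were 0.21, 0.17 and -0.82, and that of the lymphocyte markers was -1.82. Over the 8 arrays Pearson's r of Il18r1 was 0.94 with Csf3r and 0.77 with the lymphocyte gene Nkg7, and that of Il18rap was 0.96 and 0.55, as a description. The part of these cell types in the Il18r1 difference was not tested.

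Without IL-15-/- mouse 1, CD16/32LO cells had 1 IL-15-/- array left, so differences are given and no call is drawn from them. The differences were then 0.84 for Il1a (SE 0.350), 1.16 for Il1rap (SE 0.324), 0.37 for Il1b, 0.37 for Il18rap and 0.29 for Il1f9. They were 0.19 for Il1r2, 0.13 for Il1rn, 0.13 for Il18, -0.51 for Il33 and -0.89 for Il18r1. In 7 members the sign had turned from negative to positive, and those of Il18r1 and Il33 had stayed negative.

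**Figure D2:**
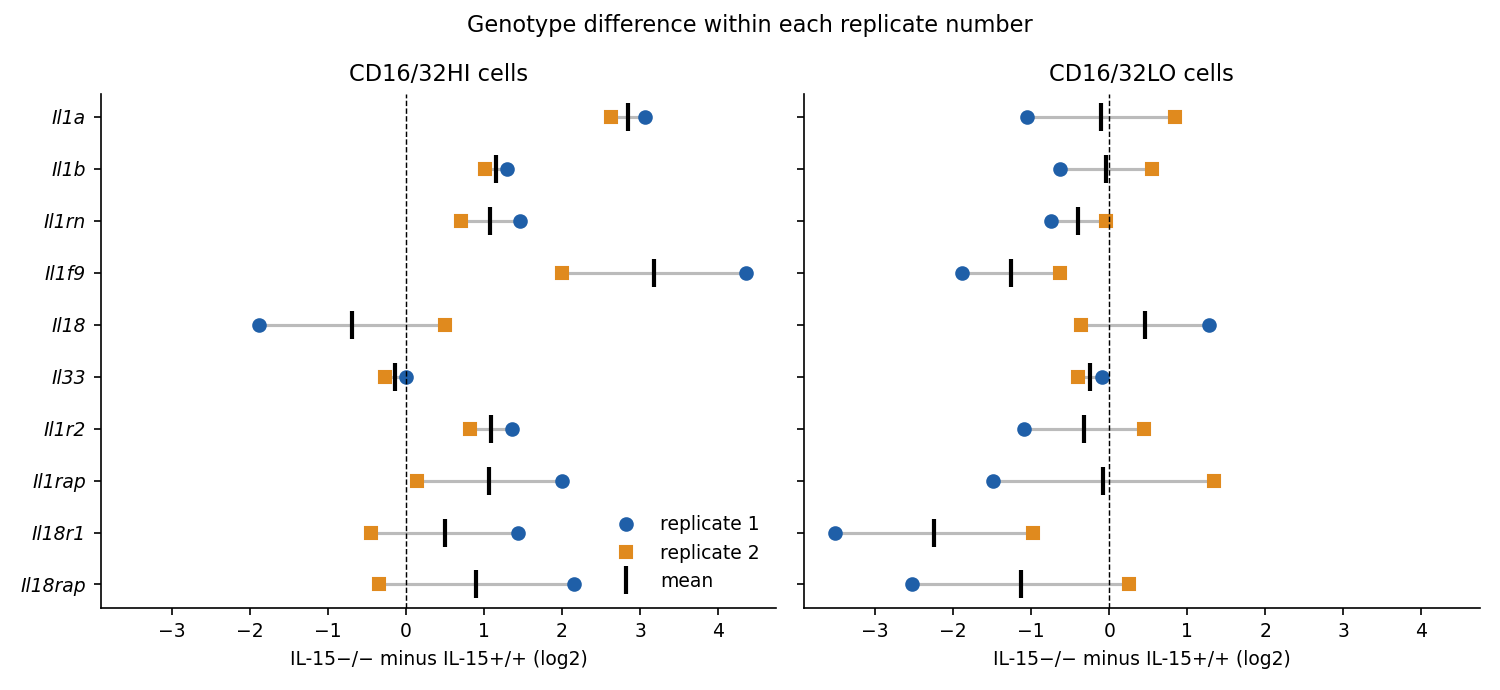
Log2 difference between IL-15-/- and IL-15+/+ tumors (x axis) for the 10 genes within replicate 1 (blue circles) and within replicate 2 (orange squares), with the mean as a black bar, in CD16/32HI cells (left) and CD16/32LO cells (right). Il1a lies at 3.06 and 2.62 in CD16/32HI cells and at -1.06 and 0.84 in CD16/32LO cells.

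Between the sorted fractions, 3 of the 4 mice had the same order and IL-15-/- mouse 1 the opposite one. With all 4 mice limma within mice called 0% of probe sets (257 at an unadjusted p under 0.05, 0 of them members). The differences, CD16/32HI minus CD16/32LO, then ran from -1.16 for Il1a to 0.73 for Il18, and the adjusted p of each member was 0.92. For Il1a the fractions differed by -2.33 and -2.94 in the IL-15+/+ mice of replicates 1 and 2, by -1.16 in IL-15-/- mouse 2 and by 1.79 in IL-15-/- mouse 1. For Il18rap the same 4 values were -2.09, -1.75, -2.35 and 2.58.

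In the 3 mice other than IL-15-/- mouse 1, 8 members passed the test as higher in CD16/32LO cells, against 7.62% of all probe sets. Il18 passed as higher in CD16/32HI cells, against 6.67%. IL-15-/- mouse 1 was left out because its measured C1qa and Csf3r ran opposite to the others, and these members rise or fall with Csf3r. Leaving it out favours such calls, and the p-values below do not allow for that choice. Both IL-18 receptor chains had the smallest adjusted p-values of the members, with differences of -2.50 for Il18r1 (SE 0.196, adjusted p = 8.29e-05) and -2.07 for Il18rap (SE 0.159, adjusted p = 7.89e-05). The decoy Il1r2 differed by -1.32 (SE 0.145, adjusted p = 0.000501) and the accessory chain Il1rap by -1.81 (SE 0.217, adjusted p = 0.000736). Among the ligands, Il1f9 differed by -2.73 (SE 0.389, adjusted p = 0.00174), Il1a by -2.14 (SE 0.280, adjusted p = 0.00114) and Il1b by -1.04 (SE 0.150, adjusted p = 0.00182), and the antagonist Il1rn by -1.15 (SE 0.174, adjusted p = 0.00235).

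Il18 lay on the other side from the ligands Il1a, Il1b and Il1f9. It was 1.27 higher in CD16/32HI cells (SE 0.294, adjusted p = 0.0196), while its 2 receptor chains were higher in CD16/32LO cells. Il33 did not pass (0.12, adjusted p = 0.676). Over the alternatives run, the adjusted p of each of these members rose to 1. In these 3 mice 8 of 9 macrophage markers were called higher in CD16/32HI cells. In CD16/32LO cells 9 of 9 neutrophil markers and 7 of 11 lymphocyte markers were called higher. The macrophage and neutrophil lists hold C1qa and Csf3r, by which IL-15-/- mouse 1 was set apart. The part of each cell type in the IL-1 family differences was not tested.

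**Figure D3:**
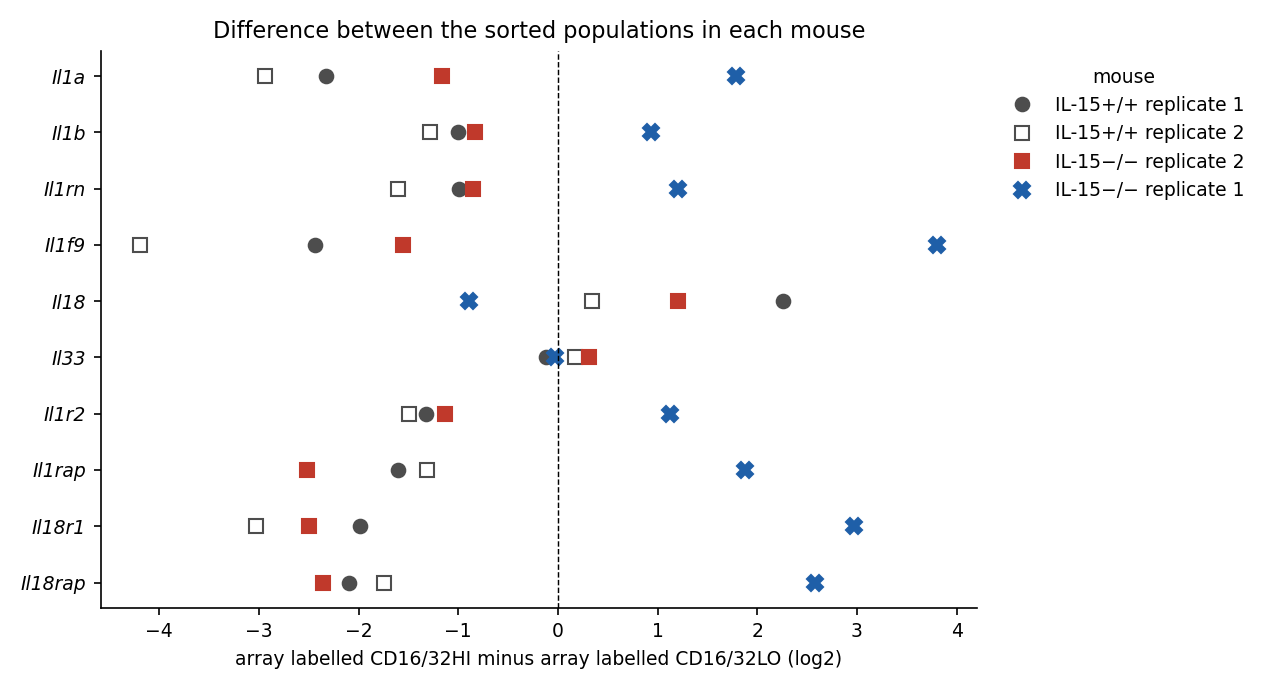
Log2 difference between the arrays labelled CD16/32HI and CD16/32LO (x axis) in each of the 4 mice for the 10 genes, with grey symbols for IL-15+/+ mice (filled, replicate 1; open, replicate 2), a red square for IL-15-/- mouse 2 and a blue cross for IL-15-/- mouse 1. The cross lies on the other side of 0 from the other 3 mice in 9 genes, with Il18r1 at 2.97 against -1.99, -3.03 and -2.49, and not in Il33.

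The fraction difference was tested in each genotype as well. In IL-15+/+ tumors limma within mice called 0% of probe sets, with 1371 below 0.05 before adjustment, and the members ran from -3.31 for Il1f9 (SE 1.35) to 1.30 for Il18, with Il1a at -2.63 (SE 0.733, adjusted p = 0.617). In IL-15-/- tumors it called 0%, with 57 below 0.05 before adjustment, and the members ran from -0.32 for Il1rap to 1.13 for Il1f9. The spread in both fits was shared with IL-15-/- mouse 1, whose 2 fractions ran the other way. The difference between the genotypes in this fraction effect was 2.95 for Il1a (SE 1.04, adjusted p = 0.878) and 4.44 for Il1f9 (SE 1.91, adjusted p = 0.878), and 0% of probe sets were called (578 below 0.05 before adjustment). Without IL-15-/- mouse 1 these values were 1.47 and 1.76, again with 0 probe sets called (977 below 0.05 before adjustment). With the numbers of the IL-15-/- CD16/32LO arrays crossed, a pairing added after seeing the data, 4 members were called (Il1a, Il1f9, Il18r1 and Il18rap). That pairing joins arrays of different mice that were alike in Csf3r. It was chosen on the measured values, so no conclusion is drawn from its calls.

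Read by Csf3r instead of by the gate, most of the family was high on the same arrays. Because this order comes from measured values, it is given as ranges with no test. On the 4 arrays with Csf3r at 10.37 to 10.74, which are both CD16/32LO arrays of IL-15+/+ tumors, the CD16/32LO array of IL-15-/- mouse 2 and the array labelled CD16/32HI of IL-15-/- mouse 1, 8 members were higher than on all 4 other arrays, against 7.76% of all probe sets. They were Il1a, Il1b, Il1rn, Il1f9, Il1r2, Il1rap, Il18r1 and Il18rap. Il18rap was at 9.72 to 10.21 on these arrays and at 7.20 to 8.21 on the others, and Il1rap at 8.38 to 9.72 against 7.07 to 7.25. Il1b was at 12.08 to 12.75 against 10.79 to 11.82, a narrower gap. On the 4 high arrays it lay at the 99.25 to 99.87 percentile of the array, and whether signals so high are compressed was not tested. Il18 was the only member that was lower on all 4 arrays, at 5.21 to 6.20 against 6.49 to 7.48, as were 8.56% of all probe sets. Il33 overlapped.

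Among the 4 arrays with low Csf3r, 6 members were higher on both IL-15-/- arrays than on both IL-15+/+ arrays, against 26.6% of all probe sets, and Il18r1 was the 1 member lower on both, against 9.95%. Il1a was at 9.14 and 9.88 on the IL-15-/- arrays and at 7.86 and 7.26 on the IL-15+/+ arrays. The other 5 were Il1b, Il1rn, Il1f9, Il1r2 and Il1rap. Il1f9 was at 6.64 and 8.19 against 6.10 and 6.18, so that most of its distance came from 1 array, and Il18r1 was at 5.19 and 5.41 against 6.72 and 5.85. Among the 4 arrays with high Csf3r, Il1a (10.93 and 11.04 against 10.19 and 10.19), Il1b (12.75 and 12.63 against 12.45 and 12.08) and Il1rap (9.12 and 9.72 against 8.73 and 8.38) were higher on both IL-15-/- arrays, against 26.4% of all probe sets. Il18r1 was again lower, at 8.16 and 7.90 against 8.71 and 8.88, against 6.04%. At the high level the share of members above was near that of all probe sets. Il1a, Il1b and Il1rap lay above at both levels, as did 10.1% of all probe sets, and Il18r1 lay below at both, as did 1.25%.

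**Figure D4:**
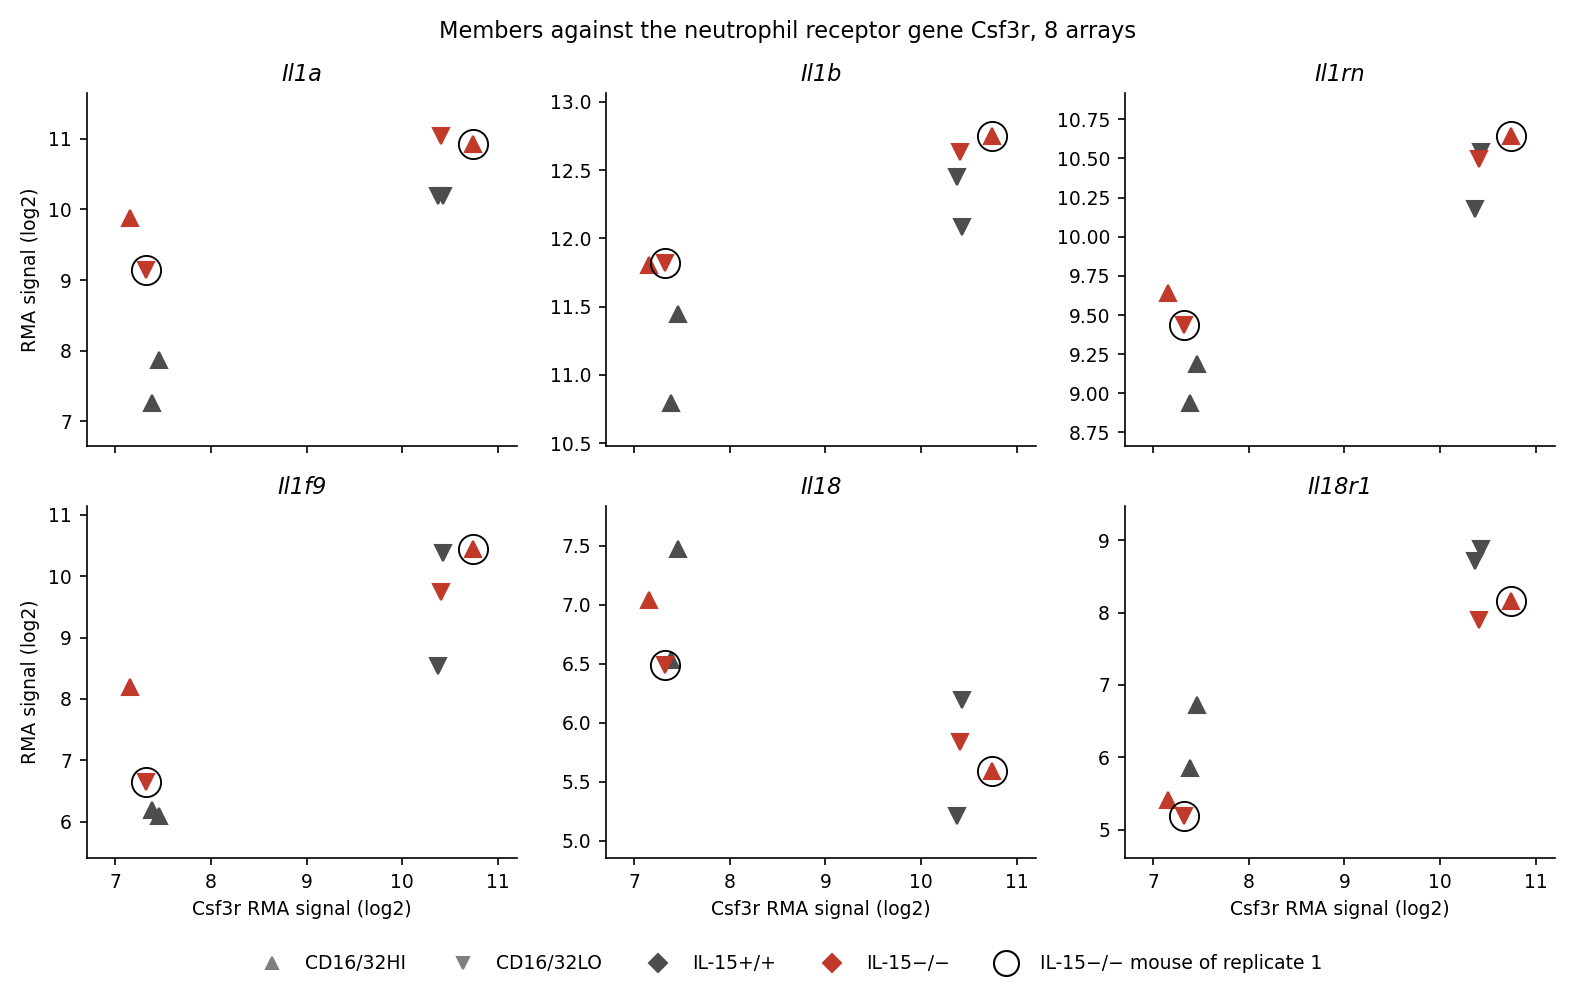
Log2 RMA signal of 6 members (y axes) against that of Csf3r (x axis) on the 8 arrays, with triangles pointing up for CD16/32HI and down for CD16/32LO, grey for IL-15+/+ and red for IL-15-/-, and a ring around the arrays of IL-15-/- mouse 1. The ringed array labelled CD16/32HI lies with the CD16/32LO arrays at Csf3r 10.74, and Il18 falls from left to right while the other 5 genes rise.

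As a description over 8 arrays, which share mice and normalization sets, Pearson's r with Csf3r was 0.96 for Il18rap, 0.94 for Il18r1, 0.93 for Il1rap, 0.93 for Il1rn, 0.90 for Il1r2, 0.87 for Il1f9, 0.82 for Il1b, 0.78 for Il1a, -0.23 for Il33 and -0.83 for Il18. Within the family, r was 0.98 between Il1b and Il1r2, 0.97 between Il1rn and Il1f9, 0.95 between Il1a and Il1b and 0.91 between Il18r1 and Il18rap. The genes most like Il1a by r were the mitochondrial iron carrier Slc25a37 (0.99), Dop1b (0.99) and the phosphate transporter Slc20a1 (0.99). Those most like Il1b were the myeloid lectin Clec4d, Ccnt1 and Rhoh, those most like Il1rn the phospholipase Plcg2, the protease inhibitor Slpi and Susd1, and that most like Il18rap was the fatty acid receptor gene Ffar2 (0.99). With 8 arrays in 2 clusters many genes reach such values.

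Of the rest of the pathway, 0 genes passed between the genotypes in either fraction. At an unadjusted limma p under 0.05 in CD16/32HI cells were 1 of 9 other family genes, 2 of 12 signaling genes and 1 of 15 processing genes. So were 7 of 15 induced genes, beside 1070 of all 21789 probe sets. In CD16/32LO cells 1 of 15 induced genes was under it, beside 417 of all 21789 probe sets. Among 9 measured other ligands, receptors and inhibitors of the family the median difference was -0.01 in CD16/32HI and 0.07 in CD16/32LO cells (-0.07 there without IL-15-/- mouse 1), with Il1rapl1 at -0.66 and the IL-18 binding protein gene Il18bp at 0.40 in CD16/32HI cells, and Il1rapl2 at 0.34 and Il1rapl1 at -0.25 in CD16/32LO cells (the latter -0.44 without IL-15-/- mouse 1). The signaling receptor Il1r1 was not analysed here. Of 12 measured signaling genes, 12 had a positive difference in CD16/32HI cells (median 0.48, against 0.09 for all probe sets), with the inhibitory kinase-like Irak3 at 1.19 (SE 0.540) and the ubiquitin ligase Traf6 at 1.06 (SE 0.320). Their median was 0.38 without IL-15-/- mouse 1, with Irak3 at 0.55. In CD16/32LO cells the median was 0.14, against 0.13 for all probe sets, with Ikbkb at 0.28 and Traf6 at 0.25. Without that mouse it was 0.38, with Ikbkb at 0.01 and Traf6 at 0.74.

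Genes for the processing and release of the cytokines had medians of 0.01 and 0.19 in the 2 fractions (15 measured). The inflammasome sensor Nlrp3 was at 1.46 (SE 0.351) and the protease gene Capn1 at 0.65 in CD16/32HI cells, and the ATP receptor P2rx7 at 0.79 and the sensor Nlrc4 at 0.78 in CD16/32LO cells. With IL-15-/- mouse 1 left out, P2rx7 and Nlrc4 turned to -0.34 and -0.12 and the CD16/32LO median to -0.01, and in CD16/32HI cells Nlrp3 was at 0.98, Capn1 at 0.27 and the median at 0.14. Of 15 measured genes that IL-1 is known to induce, 9 were higher on both IL-15-/- arrays than on both IL-15+/+ arrays in CD16/32HI cells, against 24.1% of all probe sets, and 6 were over 3-fold higher by mean signal, against 0.271%. Their median was 1.27, and without IL-15-/- mouse 1 it was 1.10, with 4 genes over 3-fold higher. With all mice the largest differences were those of the chemokines Ccl3 (2.90, SE 0.745) and Cxcl3 (2.82, SE 0.578), which were at 1.84 and 1.89 without that mouse. Saa3 was at 8.33 and 4.86 with IL-15 and at 8.09 and 10.73 without it, so its genotypes overlapped. Without that mouse Saa3 had the largest difference of the list, 4.14, which rests on 1 IL-15-/- array. In CD16/32LO cells the median was 0.11, with the iron-binding protein gene Lcn2 at -2.47 (SE 0.948) and the acute phase gene Saa3 at 1.10 (SE 1.60). In the absence of IL-15-/- mouse 1 that median was 0.35, Lcn2 was at -0.96 and Saa3 at 3.29 (SE 1.18, adjusted p = 1). Many of these genes are also known targets of other inflammatory signals.

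Between the fractions in the 3 mice, called genes of the pathway fell on both sides. Over all probe sets 7.62% were called higher in CD16/32LO and 6.67% higher in CD16/32HI cells. These calls, too, follow the removal of the mouse whose markers ran the other way. Of the signaling genes 5 of 12 were higher in CD16/32LO cells, namely the adaptor Myd88 (-1.03, adjusted p = 0.00136), Irak3 (-1.45, adjusted p = 0.000373), Traf6 (-0.70, adjusted p = 0.0154), Tab2 (-0.49, adjusted p = 0.0444) and Tab3 (-0.77, adjusted p = 0.00653). Of the processing genes 5 of 15 were higher in CD16/32HI cells. They were Casp1, which cuts IL-1β and IL-18 (0.62, adjusted p = 0.0157), the inflammasome adaptor Pycard (0.81, adjusted p = 0.0236), Nlrc4 (1.47, adjusted p = 0.00103), P2rx7 (1.47, adjusted p = 0.000693) and Capn2 (0.85, adjusted p = 0.0124). Nlrp3 (-0.66, adjusted p = 0.0201) and Capn1 (-0.99, adjusted p = 0.00179) were higher in CD16/32LO cells. Il18 thus shared its side with Casp1 and Pycard, and Il1b did not. Of the induced genes 5 of 15 were higher in CD16/32LO cells, namely Lcn2 (-3.22, adjusted p = 0.00049), the inducible cyclooxygenase Ptgs2 (-2.10, adjusted p = 0.00192), Ccl3 (-1.88, adjusted p = 0.000514), Cxcl3 (-1.53, adjusted p = 0.000818) and Saa3 (-1.05, adjusted p = 0.0178), and Il6 was on the CD16/32HI side (0.98, adjusted p = 0.00442). Of the 9 other family genes 0 were called (1 below 0.05 before adjustment).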

How the data were processed

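Sorted CD16/32HI and CD16/32LO cell RNA was hybridized to Affymetrix whole transcript 1.0ST arrays, 8 in all. Each probe set has 1 deposited log2 signal an array, which the authors background corrected, normalized and summarized (Affymetrix Expression Console and RMA, per the labels; versions and genome build are not given in the sources used here). Of 35557 probe sets, 21789 had exactly 1 gene symbol and were tested, 1621 had several, and the others were unnamed here. Array medians were 5.62 to 5.93, and the number of arrays limits the precision. Groups followed the labels. Genotypes were compared within each fraction with limma 3.58.1 (R 4.3.3) on 4 group means, and fractions and the interaction with the mouse as a block, since both fractions of a number came from 1 mouse. The p-values were two-sided and Benjamini-Hochberg adjusted over 21789 probe sets, with calls under 0.05. The fits were run on simulated data with less spread than most members had, so this run does not show how the fits behave here. RMA compresses changes of dim probe sets. Arrays normalized together were found from values equal to the last deposited digit (11 to 106 a pair, 0 between sets). Named genes were all members, and of the pathway lists every called gene and the 2 largest genotype differences a fraction. The members and lists were chosen with earlier results of these data known. Alternatives covered normalization, blocks, the probe sets tested and arrays left out.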

Additional observations from a re-analysis of the deposited data

How the results depend on the processing

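The planned mean over several probe sets of a gene gave no value, since each member has 1. Median centring, quantile normalization, the other probe set filters and the fit on the 4 arrays of a fraction changed no call of a member, and turned 1 sign, of Il33 between the fractions in IL-15+/+ tumors with quantile normalization (-0.0539). A block for the normalization set turned Il33 in CD16/32HI cells (0.0117). Mice of one replicate number share an age, and those of replicate 1 a normalization set, but no label gives a shared litter or day, and their deviations correlated between the genotypes at 0.0556 in the HI and 0.134 in the LO fraction. With a replicate block Il1a in CD16/32HI cells kept its difference of 2.84 and 0 members were called. With 1 array left out, the members over 3-fold higher in CD16/32HI cells were 2 to 7, with 7 when the replicate 2 array of CD16/32HI IL-15-/- cells was absent, and those over 3-fold lower in CD16/32LO cells 0 to 3, with 0 and 3 when its IL-15-/- arrays 1 and 2 were absent and 2 when its IL-15+/+ array 1 was. The ranges with 1 array left out were -1.41 to 0.0331 for Il18, -0.88 to 1.88 for Il18r1 and -0.0604 to 1.86 for Il18rap in CD16/32HI cells. Those of CD16/32LO cells were -1.05 to 0.84 for Il1a, -0.45 to 0.37 for Il1b, -0.92 to 0.13 for Il1rn, -2.81 to 0.29 for Il1f9, -0.0332 to 0.95 for Il18, -0.51 to 0.0236 for Il33, -0.83 to 0.19 for Il1r2, -1.31 to 1.16 for Il1rap and -2.64 to 0.37 for Il18rap.

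Leaving out IL-15-/- mouse 1 turned Il18 (0.0331), Il18r1 (-0.88) and Il18rap (-0.0604) in CD16/32HI cells, and for CD16/32LO cells Il1a (0.84), Il1b (0.37), Il1rn (0.13), Il1f9 (0.29), Il1r2 (0.19), Il1rap (1.16) and Il18rap (0.37), with 0 members over 3-fold lower. Between the fractions it gave 1 member called higher in CD16/32HI cells and 8 called lower, and in the interaction it turned Il1rap (-1.05) and Il18rap (-0.43). With a replicate block as well, added after seeing the data, 1 member was called higher and 1 was over 3-fold higher in CD16/32HI cells (Il1a, 2.47), Il18, Il18r1 and Il18rap were at 0.0223, -0.70 and -0.26 there, and in CD16/32LO cells Il1a, Il1b, Il1rn, Il1r2, Il1rap and Il18rap were at 0.996, 0.62, 0.11, 0.49, 1.27 and 0.17, with 0 over 3-fold lower. The deviations of the IL-15-/- fractions ran against each other (correlation -0.458). The numbers of their CD16/32LO arrays were also crossed, again added after seeing the data. Then 8 members were called lower in the CD16/32HI fraction with IL-15 present and 4 higher in the interaction. Crossing joins arrays of different mice and was chosen on these values, so no conclusion is drawn from these calls. The cause of these changes was not tested.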
